A study of Mus musculus with 8 samples.

Results

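Genes of mitosis and cell division were examined in whole mouse hearts. The deposited table of 17191 genes held all 40 of them. They were chosen by name from what their proteins do, with earlier results of these data known. All hearts came from mice 4 weeks after TAC (transverse aortic constriction), surgery that puts a tight suture on the aortic arch and so raises the pressure against which the left ventricle pumps. The groups were 4 libraries from mice labelled STAT3 S727A, in which a serine of the transcription factor STAT3 that can be phosphorylated is replaced by alanine, and 4 from mice labelled WT. The labels name no strain, age, sex or source animal and do not say in which tissues the S727A allele acts. Hearts without TAC were not analysed here. No label ties a library to a separate animal, so the p-values rest on library-to-library spread that may be technical.

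To divide, a cell must duplicate its DNA, switch on the cyclin-dependent kinase CDK1, build a bipolar spindle, attach each chromosome to it at the kinetochore, destroy securin and cyclin B once all are attached, and split its cytoplasm. Most of these genes are switched on together late in the cell cycle, through the MuvB complex with B-MYB and FOXM1, and are held silent in resting cells by the DREAM complex. Adult cardiac myocytes seldom divide. Fibroblasts, endothelial cells and leukocytes of the heart can enter the cycle after injury or pressure load. In a whole heart, more dividing cells and more RNA per dividing cell cannot be told apart.

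Total estimated counts were 10577636 to 13305143 per library, and the 8 libraries differed from each other by far more than sampling noise. Y-linked genes had 9 counts together in library S727A 4, 6 in library WT 4 and 1940 to 2225 in each other library. The 40 genes together took 3634, 2746, 2352 and 1819 counts in S727A libraries 1 to 4 and 840, 910, 2080 and 1284 counts in WT libraries 1 to 4. Library WT 3 therefore held more reads of these genes than S727A 4, and WT 1 and WT 2 held the fewest.

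Most of the genes were scarce. On the length-corrected scale of the deposited FPKM values, the mean over all libraries was under 1 for 19 genes and between 1 and 5 for another 19. The median of the 40 genes was 1.4 FPKM in S727A and 0.525 FPKM in WT, against 4.07 FPKM for the median gene of the table. The exceptions were Cenpa, the histone H3 variant that marks centromeres, at 32.9 ± 3.51 FPKM in S727A and 22.7 ± 6.86 FPKM in WT, and Ube2c, a ubiquitin-conjugating enzyme of anaphase, at 9.19 ± 3.70 and 2.15 ± 1.71 FPKM (SD, n = 4). Cenpa stood at percentile 85.5 of all genes in the table. At the other end were Bub1 (0.191 FPKM over all libraries), Cenpe (0.229), Melk (0.285), Ttk (0.295) and Ect2 (0.331).

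S727A hearts had the higher mean of these genes almost throughout, but no gene passed the test. Log2 fold changes of S727A over WT were above 0 for 39 of the 40 genes, in a fit with no filter on low counts where 48.8% of all genes were above 0. Cenpf, a kinetochore protein gene, was the exception. Summed over the 40 genes, the level was 283, 218, 210 and 141 CPM (counts scaled to library size) in S727A libraries 1 to 4 and 80.5, 85.2, 152 and 100 CPM in WT libraries 1 to 4. The groups overlapped by 1 pair, since WT 3 lay above S727A 4. Means were 213 ± 57.9 CPM for S727A and 104 ± 32.9 CPM for WT (SD, n = 4), a ratio of 2.04.

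Genes with at least 10 counts at the median depth in 4 libraries were tested, which kept 38 members. Of these, 18 reached that depth in all 4 S727A libraries but not in all WT libraries, so the tested genes are in part those that were high in S727A. Ttk and Cdkn3 were left out. In edgeR 0 of the 38 had an adjusted p under 0.05, where 19 of 12998 genes (0.146%) did, 0.0462% as higher and 0.1% as lower, and adjusted p over the members ran from 0.0992 to 0.706. At an unadjusted p under 0.05, 30 of the 40 genes were higher and 0 lower with no filter, against 7.64% of all genes higher and 7.19% lower. All 4 S727A libraries lay above all 4 WT libraries for 9 of the 40 genes, against 3.44% of genes with counts. These were Cdk1, Ccnb1, Cdkn3, Plk1, Bub1b, Cenpa, Ube2c, Kif20a and Hmmr. Several of these gaps were small. S727A 4 and WT 3 held 36 and 38 counts of Cdk1 and 11 and 11 of Ccnb1. They held 19 and 20 counts of Hmmr and 49 and 52 of Ube2c, so the order of these libraries rests on scaling to library size. Cdkn3 had 7 counts in S727A 3 and 6 in WT 4. The same libraries, S727A 4 and WT 3, held 44 and 36 counts of Bub1b and 50 and 43 of Kif20a. The median log2 fold change was 1.36 over the tested members and -0.003 over all tested genes.

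**Figure D1:**
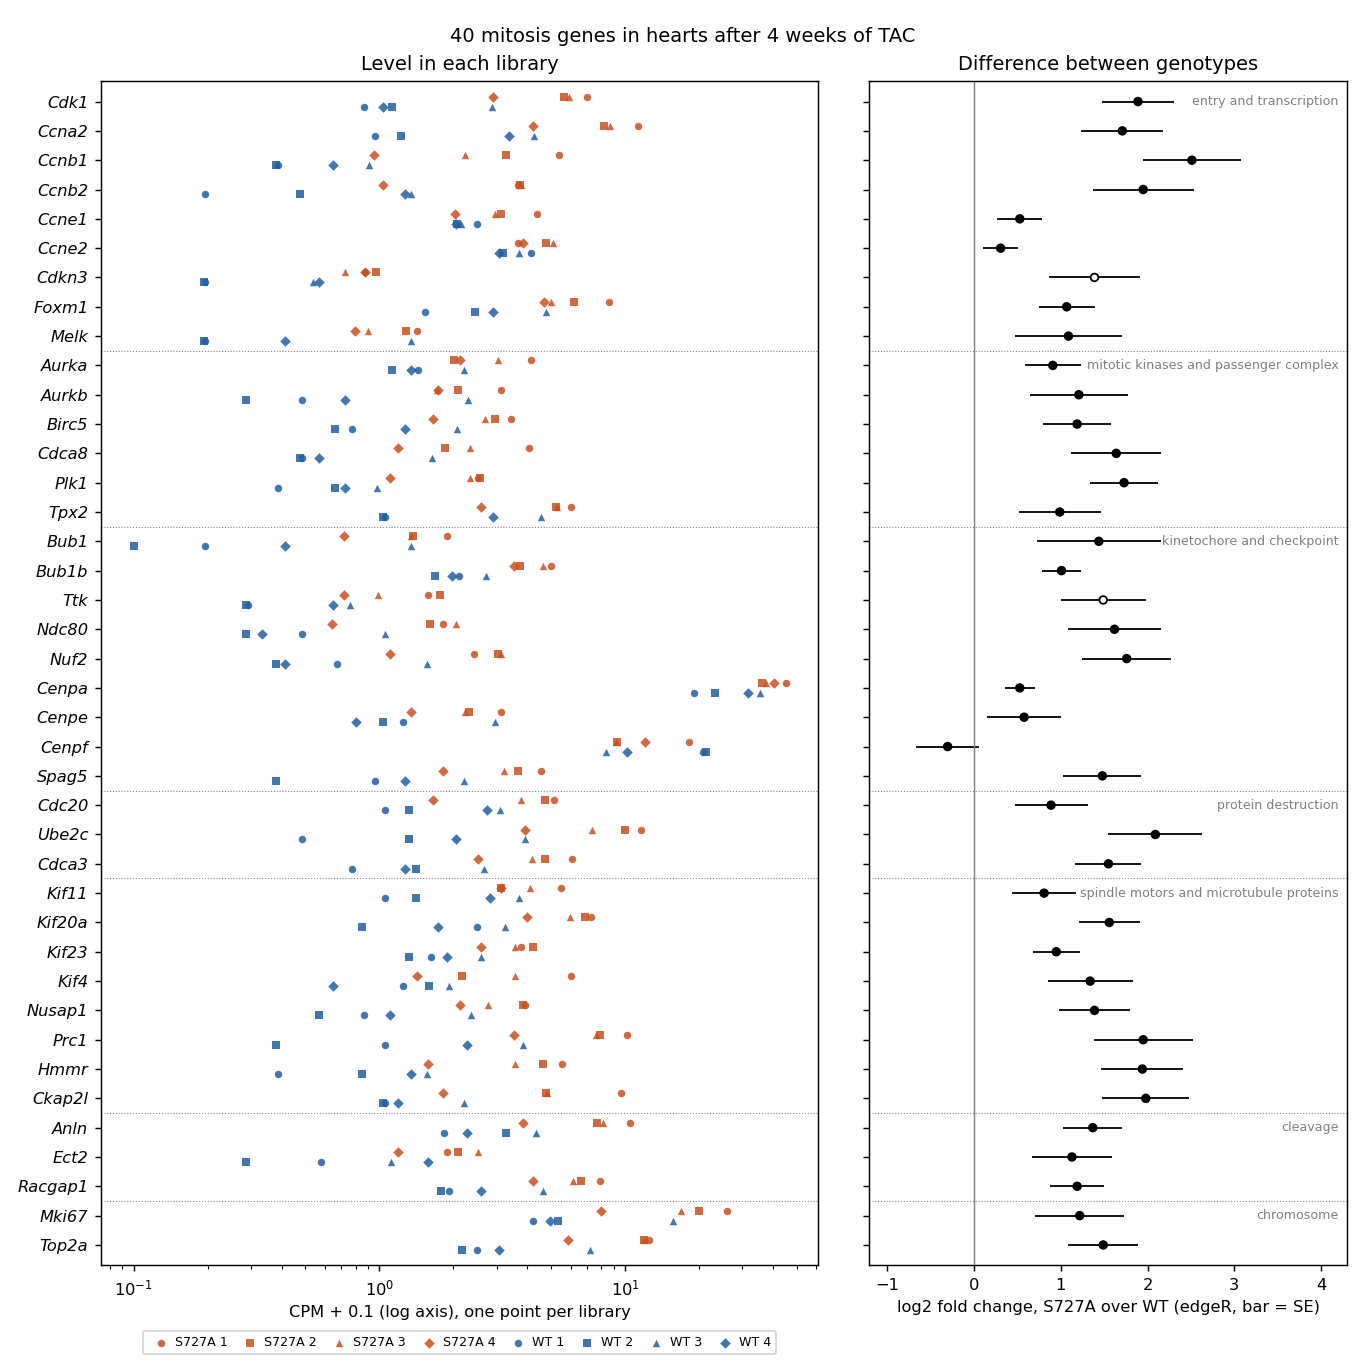
Left, CPM plus 0.1 of each gene in each of the 8 libraries on a log axis (orange, S727A; blue, WT; symbol shape, replicate number). Right, log2 fold change of S727A over WT with its standard error, with open points for Cdkn3 and Ttk, which were fitted only with no filter on low counts; all but Cenpf lie to the right of 0, and WT 3 (blue triangles) is the highest WT library for 35 of the 40 genes.

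Position in the group was much the same from gene to gene. S727A 4 was the lowest S727A library for 33 of the 40 genes, where it was the lowest for 25.2% of all genes with counts. WT 3 was the highest WT library for 35 of the 40, against 23.8% of all genes. WT 3 exceeded S727A 4 for 28 genes. S727A 1 was the highest of all 8 libraries for 30 genes, and WT 1 or WT 2 the lowest for 35. Shares over all genes were not computed for these counts of 28, 30 and 35, so they may not be particular to the mitosis genes. The genes lie on 17 chromosomes.

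Promoters are shown because late cell-cycle genes are textbook targets of 2 short elements, the cell cycle genes homology region (CHR, letters TTTGAA or TTCGAA), bound by MuvB, and the CCAAT box, bound by NF-Y. RefSeq windows of 300 bases (250 before and 50 after the start site, build GRCm38.p6) were given for 34 of the 40 genes. Searched on both strands, TTTGAA stood in 26 of the 34 (76.5%), against 20.2% of 27025 genes with a window. The rarer TTCGAA was in 3 (8.82%, against 1.8%). CCAAT was in 27 (79.4%, against 41.1%), and TTTGAA together with CCAAT in 1 window in 24 (70.6%, against 7.97%). The E2F-like strings TTCCCGCC, TTTCCCGC and TTTGGCGC were in 0 of 34 (against 3.69%), which says only that these letters are not in these windows. TTTGAA was not found for Ccnb1, Ccne1, Melk, Birc5, Bub1, Nuf2, Cenpe and Nusap1. A match is a description of the sequence and no binding was measured.

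From base -141 to base 20 relative to the start site, with both elements in capitals as they read on the strand of the gene (ATTGG and TTCAAA are CCAAT and TTTGAA on the other strand), 5 promoters with both elements and that of Ccne1, with neither, read as follows. They lie at chr10:69352893-69353053 (- strand) for Cdk1, chr9:70421535-70421695 (- strand) for Ccnb2, chr2:164769788-164769948 (+ strand) for Ube2c, chr4:118437324-118437484 (- strand) for Cdc20, chr1:189688067-189688227 (- strand) for Cenpf and chr7:38107471-38107631 (- strand) for Ccne1.
Cdk1: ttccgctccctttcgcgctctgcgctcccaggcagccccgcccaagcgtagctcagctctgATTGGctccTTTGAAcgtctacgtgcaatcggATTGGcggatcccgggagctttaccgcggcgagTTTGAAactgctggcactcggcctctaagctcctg 
Ccnb2: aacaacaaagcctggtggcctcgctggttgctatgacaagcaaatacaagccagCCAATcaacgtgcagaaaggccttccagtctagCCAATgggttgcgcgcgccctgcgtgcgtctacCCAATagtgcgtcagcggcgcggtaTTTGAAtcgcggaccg 
Ube2c: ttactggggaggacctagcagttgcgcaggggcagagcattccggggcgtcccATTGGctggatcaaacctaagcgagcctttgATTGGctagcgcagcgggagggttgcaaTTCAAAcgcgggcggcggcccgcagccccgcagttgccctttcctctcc 
Cdc20: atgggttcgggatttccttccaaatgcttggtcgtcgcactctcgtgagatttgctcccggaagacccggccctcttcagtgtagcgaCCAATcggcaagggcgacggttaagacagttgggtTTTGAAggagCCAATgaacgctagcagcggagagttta 
Cenpf: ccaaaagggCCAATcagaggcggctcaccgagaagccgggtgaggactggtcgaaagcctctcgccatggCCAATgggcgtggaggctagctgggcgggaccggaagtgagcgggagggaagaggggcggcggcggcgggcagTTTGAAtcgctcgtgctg 
Ccne1: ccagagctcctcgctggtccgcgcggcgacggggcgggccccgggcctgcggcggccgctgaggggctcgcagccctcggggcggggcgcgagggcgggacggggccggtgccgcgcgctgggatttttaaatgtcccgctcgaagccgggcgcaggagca
In Cdk1 the CCAAT boxes began at -80 and -48 and TTTGAA at -71 and -15. Ccnb2 had 3 CCAAT boxes, at -87, -54 and -21, before TTTGAA at 5, and Ube2c 2, at -88 and -57, before TTCAAA at -29. Cenpf, whose level did not follow the others, had the same pair of elements, with CCAAT at -132 and -71 and TTTGAA at 3.

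The regulators of entry into DNA synthesis and mitosis and of cell-cycle transcription had log2 fold changes of 0.31 (Ccne2) to 2.51 (Ccnb1). Cdk1 (gene 12534, chromosome 10, 69335146 to 69352912, GRCm38.p6), the kinase that drives mitotic entry, was at 6.93, 5.56, 5.80 and 2.80 CPM in S727A libraries 1 to 4 and at 0.767, 1.03, 2.78 and 0.935 CPM in WT libraries 1 to 4. The groups were separate, though S727A 4 and WT 3 all but touched. Its log2 fold change was 1.89 ± 0.41 (SE, edgeR adjusted p = 0.0992). Ccna2, which encodes the S phase and early mitotic cyclin A2 and had the highest FPKM of these regulators, was at 11.2, 8.10, 8.56 and 4.12 CPM in S727A and 0.863, 1.12, 4.17 and 3.27 CPM in WT. Here WT 3 lay above S727A 4, and the log2 fold change was 1.71 ± 0.47 (SE, edgeR adjusted p = 0.137).

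Cyclin B1 and cyclin B2 are the partners of CDK1 in mitosis. Ccnb1 (gene 268697, chromosome 13, 100778739 to 100786486) had the largest ratio of group means of all 40 genes, 5.97. It was at 5.29, 3.18, 2.14 and 0.855 CPM in S727A libraries 1 to 4 and 0.288, 0.281, 0.805 and 0.545 CPM in WT libraries 1 to 4. The 4 S727A values spread widely and the lowest lay just above WT 3. Its log2 fold change was 2.51 ± 0.56 (SE, edgeR adjusted p = 0.105), on as few as 3 counts in WT 1 and WT 2. Ccnb2 was at 3.58, 3.65 and 3.66 CPM in S727A 1 to 3 but at 0.932 CPM in S727A 4, below WT 3 (1.24) and WT 4 (1.17). Its log2 fold change was 1.95 ± 0.58 (SE, adjusted p = 0.151).

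The cyclin E genes act earlier, at the entry into DNA synthesis, and differed little. Ccne1 averaged 3.02 ± 0.962 CPM for S727A and 2.09 ± 0.209 CPM for WT, and Ccne2 had means of 4.25 ± 0.698 and 3.42 ± 0.488 CPM (SD, n = 4). Log2 fold changes were 0.53 ± 0.26 for Ccne1 and 0.31 ± 0.20 for Ccne2 (SE), and the groups overlapped for both. Whether the cyclin E genes differ from the mitotic cyclins was not tested. Foxm1, a transcription factor of the late cell-cycle program, was at 6.02 ± 1.77 CPM against 2.82 ± 1.37 CPM (SD, n = 4). The log2 fold change of Foxm1 was 1.07 ± 0.32 (SE, edgeR adjusted p = 0.145). The mitotic kinase gene Melk (1.09 ± 0.62, SE) and Cdkn3 (1.39 ± 0.52, with no filter), a phosphatase that acts on cyclin-dependent kinases, lay near the detection limit, with 1 count of each in WT 1 and WT 2.

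Genes of the mitotic kinases Aurora A, Aurora B and PLK1 and of the passenger complex, which carries Aurora B to centromeres and then the midzone, had log2 fold changes of 0.91 to 1.73. Plk1 (gene 18817, chromosome 7, 122159435 to 122169884), needed for centrosome maturation and mitotic exit, was at 2.41, 2.46, 2.23 and 1.01 CPM in S727A libraries 1 to 4 and at 0.288, 0.562, 0.878 and 0.623 CPM in WT libraries 1 to 4. The first 3 S727A libraries lay together and far above WT, and S727A 4 was just above WT 3. The log2 fold change was 1.73 ± 0.39 (SE, edgeR adjusted p = 0.0992). Birc5, which encodes survivin of the passenger complex, was at 3.35, 2.86, 2.59 and 1.55 CPM in S727A and 0.671, 0.562, 1.98 and 1.17 CPM in WT, with WT 3 above S727A 4. Its log2 fold change was 1.19 ± 0.39 (SE, adjusted p = 0.162). Cdca8 (borealin, 1.64 ± 0.52), Aurkb (1.21 ± 0.56), Tpx2, the activator of Aurora A on the spindle (0.99 ± 0.47), and Aurka (0.91 ± 0.32) followed as log2 fold changes (SE).

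Kinetochore and checkpoint genes had the lowest ratio of summed levels of the 7 roles, 1.38, as Cenpa and Cenpf outweighed the rest. Bub1b (gene 12236, chromosome 2, 118598202 to 118641592), which encodes the checkpoint protein BubR1, was at 4.90, 3.65, 4.55 and 3.42 CPM in S727A libraries 1 to 4 and 2.01, 1.59, 2.63 and 1.87 CPM in WT libraries 1 to 4. The groups were separate with little spread within each, and the log2 fold change was 1.01 ± 0.23 (SE, edgeR adjusted p = 0.104). Cenpa (gene 12615, chromosome 5, 30666877 to 30674837) was at 44.9, 35.9, 37.3 and 40.2 CPM in S727A and 19.0, 23.1, 35.4 and 31.5 CPM in WT. S727A 4 was among the higher libraries here, and WT 3 lay just below S727A 2. The log2 fold change of Cenpa was 0.53 ± 0.17 (SE, edgeR adjusted p = 0.167).

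Cenpf (gene 108000, chromosome 1, 189640606 to 189688107), whose large protein sits on the kinetochore and nuclear envelope and also binds microtubules outside mitosis, ran in another order. It was at 18.1, 9.21, 9.10 and 12.0 CPM in S727A libraries 1 to 4 and 20.6, 21.3, 8.27 and 10.1 CPM in WT libraries 1 to 4. WT 1 and WT 2, lowest for most of the genes, were the highest for Cenpf, and WT 3 was the lowest. The groups overlapped throughout, and the log2 fold change was -0.30 ± 0.36 (SE, edgeR adjusted p = 0.706). Its counts, 102 to 233 per library, were well above those of most other members.

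The remaining kinetochore genes were scarcer. Nuf2 and Ndc80 encode subunits of the NDC80 complex that grips microtubules, and had log2 fold changes of 1.76 ± 0.51 and 1.62 ± 0.53. Spag5 (astrin), a spindle protein that stabilizes attachments, had one of 1.48 ± 0.45, and Ttk, the checkpoint kinase MPS1, 1.49 ± 0.49 with no filter (SE). Bub1, another checkpoint kinase, had 0 counts in WT 2, which allows up to 0.281 CPM at 3 counts, and 1 count in WT 1. WT 3, at 1.24 CPM, was level with S727A 2 and 3 (1.27 and 1.25), and the log2 fold change was 1.44 ± 0.71. The kinetochore motor gene Cenpe had one of 0.58 ± 0.43 (SE), with WT 3 (2.85 CPM) above all S727A libraries but S727A 1 (3.04).

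Genes of timed protein destruction had the largest ratio of summed levels among the roles, 3.09. Ube2c (gene 68612, chromosome 2, 164769929 to 164772902), which starts ubiquitin chains for the anaphase promoting complex, was at 11.5, 9.93, 7.22 and 3.81 CPM in S727A libraries 1 to 4 and at 0.383, 1.22, 3.81 and 1.95 CPM in WT libraries 1 to 4. S727A 4 and WT 3 were equal at this rounding, while WT 1 lay far below every other library. The log2 fold change was 2.09 ± 0.54 (SE, edgeR adjusted p = 0.131). Cdca3, which promotes destruction of the CDK1 inhibitor WEE1, was at 5.99, 4.61, 4.10 and 2.41 CPM in S727A and 0.671, 1.31, 2.56 and 1.17 CPM in WT. WT 3 was just above S727A 4, and the log2 fold change was 1.55 ± 0.38 (SE, edgeR adjusted p = 0.118). Cdc20, the activator that the checkpoint holds back, had a log2 fold change of 0.89 ± 0.42 (SE), and S727A 4 (1.55 CPM) lay below WT 3 (3.00) and WT 4 (2.65).

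The 8 genes of spindle motors and microtubule proteins had log2 fold changes of 0.81 (Kif11) to 1.98 (Ckap2l), each with an unadjusted p under 0.05 with no filter (7.64% of all genes were higher at that p). Kif20a, a kinesin of the central spindle, was at 7.16, 6.75, 5.89 and 3.88 CPM in S727A libraries 1 to 4 and 2.40, 0.749, 3.15 and 1.64 CPM in WT libraries 1 to 4. The groups were separate, and the log2 fold change was 1.56 ± 0.35 (SE, edgeR adjusted p = 0.0992). Prc1, the protein that bundles midzone microtubules, had the highest FPKM of these genes and was at 10.1, 7.78, 7.49 and 3.42 CPM in S727A and 0.958, 0.281, 3.73 and 2.18 CPM in WT. WT 3 lay above S727A 4, and the log2 fold change was 1.95 ± 0.57 (SE, edgeR adjusted p = 0.154). Hmmr (gene 15366, chromosome 11, 40701388 to 40733464), a hyaluronan receptor that also organizes spindle poles, separated the groups narrowly at 5.45, 4.53, 3.48 and 1.48 CPM against 0.288, 0.749, 1.46 and 1.25 CPM. Its log2 fold change was 1.94 ± 0.47 (SE, edgeR adjusted p = 0.115).

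Of the other spindle genes, Ckap2l had a log2 fold change of 1.98 ± 0.50, with S727A 1 (9.57 CPM) at about the sum of S727A 2 and 3 (4.68 and 4.73 CPM). The bundling protein gene Nusap1 had one of 1.39 ± 0.41 and the chromosome-bound kinesin gene Kif4 1.34 ± 0.49. They were 0.95 ± 0.27 for Kif23, a kinesin of the midbody, and 0.81 ± 0.37 for Kif11, the motor that pushes spindle poles apart (SE). Estimated counts had decimals in all 8 libraries for Hmmr, in 2 for Ube2c and Birc5 and in 1 for Kif11 and Cenpf.

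Cleavage of the cytoplasm is set by Ect2 and Racgap1, which activate RhoA at the cell equator, and by anillin, the ring scaffold encoded by Anln. Anln (gene 68743, chromosome 9, 22331214 to 22389211) was at 10.4, 7.62, 8.03 and 3.73 CPM in S727A libraries 1 to 4 and 1.73, 3.18, 4.25 and 2.18 CPM in WT libraries 1 to 4. S727A 4 lay below WT 3, and the log2 fold change was 1.37 ± 0.34 (SE, edgeR adjusted p = 0.119). Racgap1 was at 7.78, 6.51, 6.06 and 4.12 CPM in S727A and 1.82, 1.69, 4.54 and 2.49 CPM in WT. The same pair overlapped, and the log2 fold change was 1.19 ± 0.31 (SE, edgeR adjusted p = 0.125). Ect2 had a log2 fold change of 1.13 ± 0.46 (SE), and S727A 4 (1.09 CPM) lay below WT 4 (1.48).

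Mki67 and Top2a are the usual tissue markers of cycling cells. Mki67 (gene 17345, chromosome 7, 135689784 to 135716450), which encodes the Ki-67 protein that coats mitotic chromosomes, was at 26.0, 19.9, 16.8 and 7.92 CPM in S727A libraries 1 to 4 and at 4.12, 5.24, 15.6 and 4.83 CPM in WT libraries 1 to 4. WT 3 was close to S727A 3 and far above S727A 4, while the other WT libraries lay below all of S727A. The log2 fold change was 1.22 ± 0.51 (SE, edgeR adjusted p = 0.272). Top2a (gene 21973, chromosome 11, 98992947 to 99024199), the topoisomerase that untangles sister chromatids, was at 12.4, 11.8, 11.9 and 5.75 CPM in S727A and 2.40, 2.06, 7.10 and 2.96 CPM in WT. S727A 1 to 3 were nearly equal, WT 3 lay above S727A 4, and the log2 fold change was 1.49 ± 0.40 (SE, edgeR adjusted p = 0.133).

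**Figure D2:**
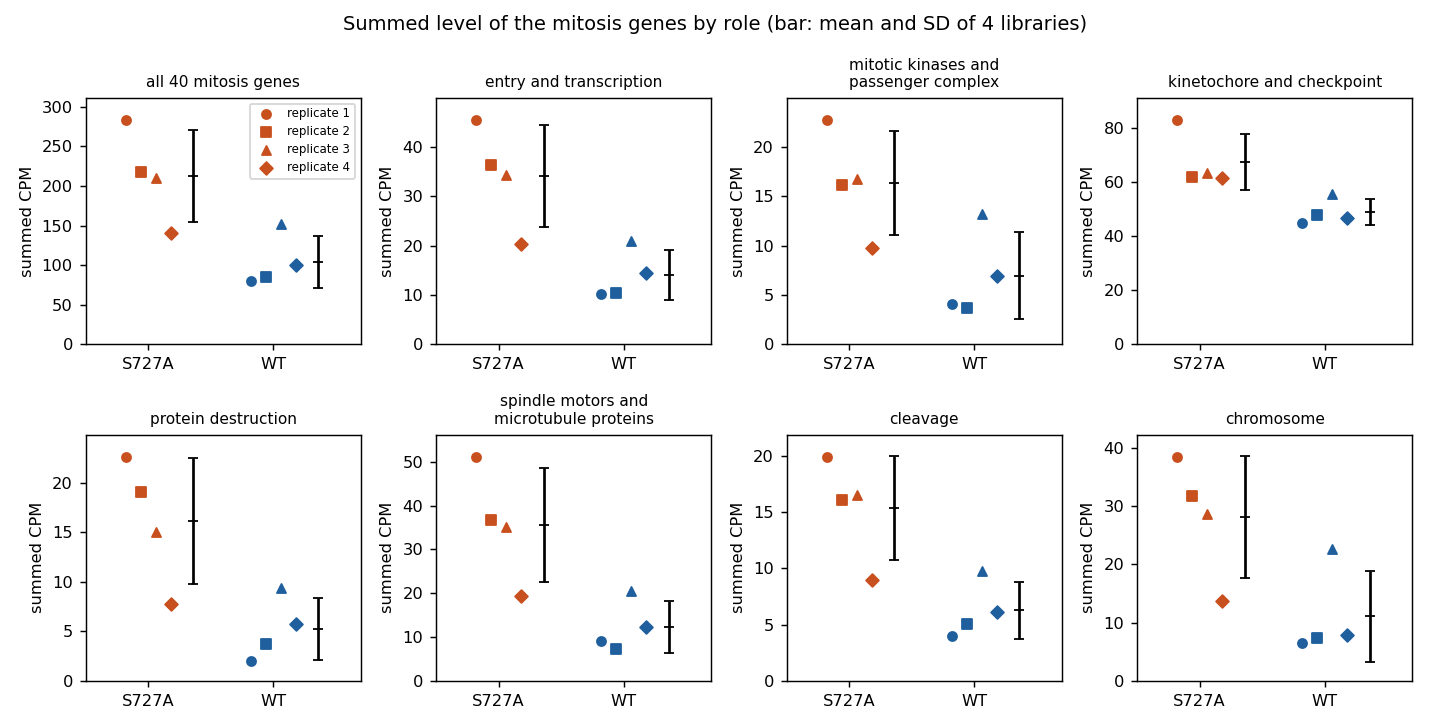
Summed CPM of the genes of each role in every library, with the mean and SD of 4 libraries per genotype beside them and all axes starting at 0. S727A 4 (orange diamond) and WT 3 (blue triangle) sit next to each other in most panels, at 141 and 152 CPM for all 40 genes, and only in the kinetochore and checkpoint panel do the groups separate, with 61.4 CPM or more in S727A and 55.6 CPM or less in WT.

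Whether a gene was called turned on the tool and on those 2 libraries. WT 3 was the highest WT library and S727A 4 the lowest S727A library for most of these genes. Leaving out either one therefore widens the difference for most of them by construction, and calls made that way are no separate evidence. With WT 3 left out, edgeR called 19 of 39 tested members as higher (1.25% of all genes tested were). Leaving out S727A 4 gave 17 of 39 (2.27% of all genes). Without both libraries that lacked Y-linked reads, S727A 4 and WT 4, the number was 7 of 39 (0.824%). DESeq2 on all 8 libraries called 18 of 38 as higher and 0 as lower (2.2% of all genes higher), with 32 higher at an unadjusted p under 0.05 (9.2% of all genes). In limma voom 0 of 38 passed, with 33 higher at an unadjusted p under 0.05 (9.13% of all genes), and 28 had one in edgeR, where 8.97% of all genes tested did as higher. The authors' deposited table lists 14 of the 40 at q under 0.05, all higher (1.38% of all genes higher).

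The 4 edgeR and DESeq2 settings with calls reuse the same libraries, and all but DESeq2 leave out S727A 4 or WT 3. The number of settings that call a gene is therefore no separate evidence. Anln, Cdk1 and Plk1 were called in all 4 settings. Their adjusted p in DESeq2 were 0.00641, 0.00143 and 0.0157, and over all alternatives their adjusted p reached 0.304, 0.276 and 0.278. Called in DESeq2 and in both single omissions were Bub1b, Cdca3, Kif20a, Nuf2, Racgap1, Top2a and Ube2c. Ccnb1, Ccnb2, Ckap2l and Hmmr were called in DESeq2, without S727A 4 and among the libraries with Y-linked reads, but not without WT 3. DESeq2 also called Ccna2, which passed without S727A 4, and Foxm1, Nusap1 and Spag5, which passed without WT 3. Kif23 and Ndc80 passed only without S727A 4, and Aurkb, Birc5, Bub1, Cdca8, Melk and Mki67 only without WT 3, among the alternatives run. Over all alternatives the median log2 fold change stayed between 0.56, on log2 of FPKM plus 1, and 1.90, without WT 3.

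**Figure D3:**
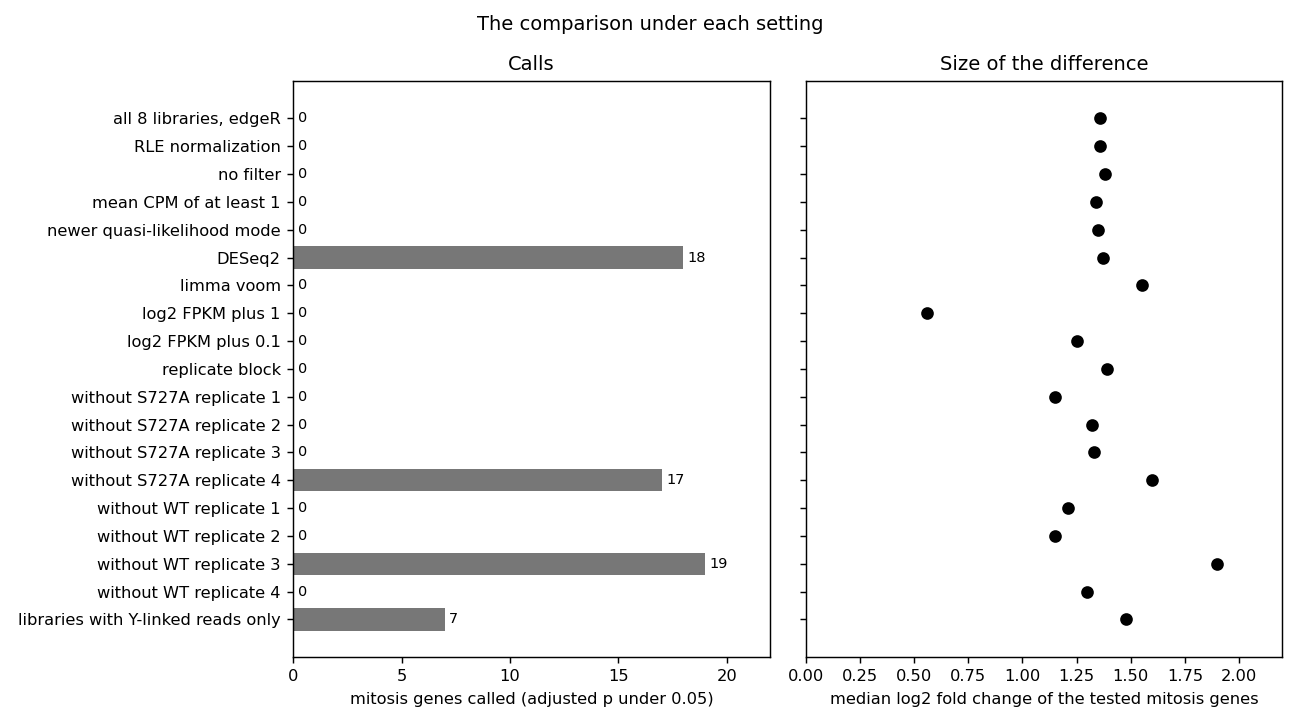
Number of mitosis genes called at an adjusted p under 0.05 (left) and median log2 fold change of the tested mitosis genes (right) in the comparison of all 8 libraries and in each alternative. Calls appear in DESeq2 (18) and where S727A 4 (17), WT 3 (19) or both libraries without Y-linked reads (7) are left out, while the median lies above 0 in every setting shown.

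Other genes of mitosis were read from a list of 78 that holds no member, of which 60 were tested. None passed in edgeR (0 higher, 0 lower), 40 of the 78 had an unadjusted p under 0.05 as higher and 0 as lower with no filter (7.64% and 7.19% of all genes), and DESeq2 called 12 as higher (2.2% of all genes). The median log2 fold change was 0.73. The 3 of smallest p were Nek2, a centrosome kinase gene, at 1.87 ± 0.631 CPM against 0.364 ± 0.253 CPM, Ccnf, which encodes cyclin F, at 2.35 ± 0.614 against 0.817 ± 0.235 CPM, and the spindle pole gene Aspm at 2.54 ± 1.05 against 0.774 ± 0.240 CPM (SD, n = 4). Their log2 fold changes were 2.29 ± 0.45, 1.49 ± 0.31 and 1.68 ± 0.37 (SE), with edgeR adjusted p of 0.0863, 0.0942 and 0.0992.

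Regulators of these genes were read from another list. Of 23 genes of the DREAM, MuvB, RB, E2F and NF-Y families, all tested, 0 passed in edgeR, with 5 higher and 1 lower at an unadjusted p under 0.05 in the same fit with no filter (7.64% and 7.19% of all genes) and a median log2 fold change of 0.10. DESeq2 called 1 (2.2% of all genes), E2f1. E2f1, an activator of S phase genes, was at 6.99 ± 2.78 CPM in S727A hearts and at 2.40 ± 1.55 CPM in WT hearts (SD, n = 4), and its log2 fold change was 1.50 ± 0.43 (SE, adjusted p = 0.146 in edgeR and 0.0146 in DESeq2). Mybl2, which encodes B-MYB, had a log2 fold change of 1.03 ± 0.36 and E2f3 one of 0.33 ± 0.12 (SE). Among 17 subunits and partners of the anaphase promoting complex the median was 0.14, and 0 passed in edgeR. With no filter, 3 were higher and 0 lower at an unadjusted p under 0.05 (7.64% and 7.19% of all genes), while DESeq2 called 1 (2.2% of all genes), Ube2s. Those of smallest p were Ube2s (0.37 ± 0.10), Cdc27 (0.31 ± 0.10) and Cdc16 (0.21 ± 0.08, log2 fold change, SE). The summed level of these complex genes was 875 to 927 CPM in S727A and 818 to 845 CPM in WT.

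Markers of the cell types that a heart can hold were set beside the mitosis genes, and their part in the result was not tested. Counts at an unadjusted p under 0.05 in these lists are from the fit with no filter, where 7.64% of all genes were higher and 7.19% lower. Activated fibroblast markers summed to 1306, 1456, 1606 and 866 CPM in S727A libraries 1 to 4 and 469, 642, 1435 and 661 CPM in WT libraries 1 to 4. WT 3 was the highest WT library and S727A 4 the lowest S727A library in that list too. In edgeR 0 of its 10 genes passed and in DESeq2 1, with 2 higher and 0 lower at an unadjusted p under 0.05, and the genes of smallest p were Tnc (1.00), Lox (1.60) and Col8a1 (0.80, log2 fold change). General fibroblast markers summed to 2440 to 2859 CPM in S727A and 1625 to 2692 CPM in WT, again with WT 3 the highest of WT and S727A 4 the lowest of S727A. Of those 10 genes 0 passed in edgeR and 3 in DESeq2 as higher (5 higher and 1 lower at an unadjusted p under 0.05), and Ddr2 (-0.35), Col1a2 (0.65) and Col3a1 (0.62) had the smallest p.

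Macrophage markers summed to 275 to 369 CPM across S727A and 364 to 608 CPM across WT, with WT 3 the highest. All 10 had a log2 fold change below 0, 0 passed in edgeR and 3 in DESeq2 as lower (6 at an unadjusted p under 0.05), and Csf1r (-0.63), Cd163 (-0.80) and Mrc1 (-0.55) had the smallest p. Smooth muscle and pericyte markers summed to 1088 to 1359 CPM in S727A and 1407 to 2051 CPM in WT, with 0 of 8 passing in edgeR and 3 in DESeq2 as lower (4 at an unadjusted p under 0.05). Those of smallest p were Acta2 (-0.80), Kcnj8 (-0.35) and Abcc9 (-0.79). Endothelial markers overlapped, at 1321 to 1570 CPM against 1319 to 1462 CPM, with 0 of 10 passing in edgeR or DESeq2 and 1 at an unadjusted p under 0.05 (Cldn5 1.31, then Kdr -0.23 and Esam 0.21). Cardiomyocyte markers summed to 92021 to 99409 CPM in S727A and 85081 to 119066 CPM in WT, with 0 of 10 passing in either tool (Ryr2 -0.31, Myl3 0.31 and Pln -0.21), 1 higher and 1 lower at an unadjusted p under 0.05.

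Lymphocytes and marrow precursors can divide often. T cell markers summed to 5.35 to 7.63 CPM in S727A and 7.40 to 10.6 CPM in WT, and Cd3e reached 0.238 CPM at most. Only Cd28 (-0.64) and Cd4 (-0.03) of the 10 were tested. B cell markers summed to 3.57 to 6.15 CPM and 4.05 to 5.34 CPM, and Cd79b (-0.27) and Cd22 (0.33) of 8 were tested. In these lists 0 passed in edgeR or DESeq2, with 1 T cell gene lower and 1 B cell gene higher at an unadjusted p under 0.05. Plasma cell markers were at 19.3 to 34.3 CPM against 14.1 to 17.9 CPM, where Jchain alone of 7 passed in edgeR (3.83 ± 0.50, SE, edgeR adjusted p = 0.0287) and DESeq2 called Jchain as higher and Irf4 as lower. Jchain was at 10.3 ± 4.65 CPM in S727A hearts and at 0.716 ± 0.513 CPM in WT hearts (SD, n = 4). Of the other tested plasma cell genes, Sdc1 was higher, at 11.4 ± 2.32 CPM against 7.64 ± 0.984 CPM (log2 fold change 0.57). The log2 fold changes of Irf4 (-1.52), Prdm1 (-0.34) and Mzb1 (-0.20) were below 0. At an unadjusted p under 0.05, 2 plasma cell genes were higher and 1 lower. Erythroid markers summed to 69.6 to 218 CPM and 57.5 to 119 CPM, with 0 passing in edgeR or DESeq2 and 0 at an unadjusted p under 0.05 (Tfrc 0.91, Alas2 0.29 and Epor 0.29), while the erythroid factor Klf1 was at 0.233 CPM or less. Granulocyte precursor markers were at 4.90 CPM or less in every library and none reached the filter, though 2 were higher at an unadjusted p under 0.05.

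**Figure D4:**
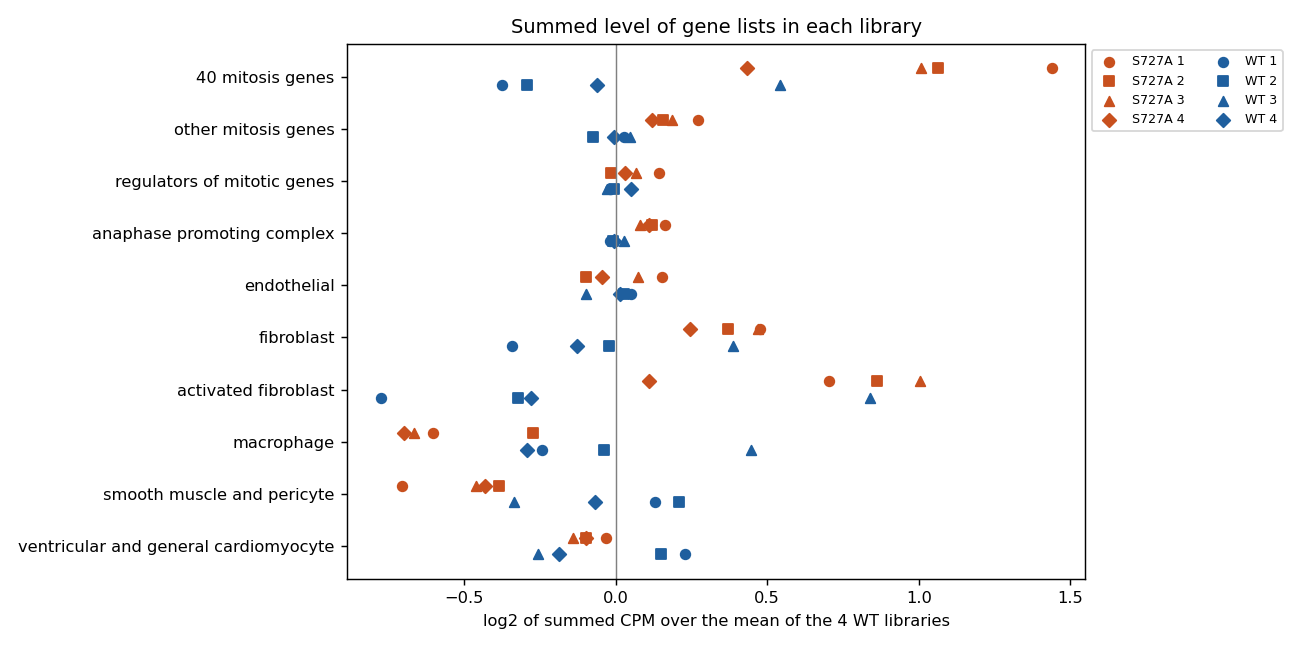
Summed CPM of each gene list in every library as log2 of its ratio to the mean of the 4 WT libraries (orange, S727A; blue, WT; symbol shape, replicate number). WT 3 (blue triangle) is the highest WT library for the mitosis, other mitosis, anaphase promoting complex, fibroblast, activated fibroblast and macrophage lists. The genotypes overlap in every list except other mitosis genes, the anaphase promoting complex, and smooth muscle and pericyte.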

How the data were processed

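Heart mRNA was sequenced as 8 libraries by BGI with a stranded DNBSEQ protocol, per the labels' protocols. HISAT2, Bowtie2, FastQC and build GRCm38.p6 come from the submitters' processing notes. Which tool counted the reads was not given in the sources used here. The deposited table holds an estimated count per gene and library, not whole in 6.06% to 7.62% of entries (tolerance 1e-06), and FPKM values divided by gene length and library size by the authors, per the file headers. Its log2 ratio, p-value and q-value of S727A over WT are the authors' own, per the file headers.

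Counts were rounded. Genes passing edgeR filterByExpr (minimum count 10, minimum total 15) were tested with TMM normalization and the two-sided quasi-likelihood F test (legacy mode, robust) in edgeR 4.0.16 and R 4.3.3, with genotype as the only term and Benjamini-Hochberg adjustment over all 12998 genes. Standard errors came from the F statistic. CPM used TMM-scaled library sizes. Intervals and floors cover counting error only. The procedure was tested on simulated data. All library pairs differed, with chi-square per degree of freedom from 9.13 to 39.0. Alternatives were RLE normalization, no filter, a mean CPM of at least 1, the newer quasi-likelihood mode, DESeq2 1.42.0, limma voom and limma trend on log2 FPKM (limma 3.58.1, pseudocounts 1 and 0.1), the replicate block, each library left out, and both libraries lacking Y-linked reads left out.

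The members, gene lists and markers were chosen with earlier results of these data known, so no list was tested as a whole. Every member is named. In each role the member of highest FPKM and that of smallest p have values in all libraries, members called in any count-based alternative are named with it, and other lists give up to 4 genes past the threshold or else the 3 of smallest p. Cyclin B, Hmmr, Mki67 and Cenpf values were added after they were seen. Gene positions and promoters came from RefSeq on GRCm38.p6; 27 of the 34 member windows carry their last bases in a GENCODE M21 transcript of the same gene. The markers Rhag, Gata1, Elane, Mpo and Camp had no row under these symbols and were not analysed here. The erythroid sum therefore covers 6 of 8 listed genes and the granulocyte precursor sum 5 of 8.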

Additional observations from a re-analysis of the deposited data

Results flagged for a closer look

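Within a genotype, a library was set apart where its gap to the nearest of the other 3 divided by the range of the 4 libraries exceeded Dixon's critical value. This held for 12 of 126 sets of 4 values. For a single set chance gives about 1 in 20, but the sums contain the members, so the sets are not independent. That rate is therefore no yardstick for the 12. WT 3 stood high for Cdk1 (2.78 CPM, next 1.03), Cdca8 (1.54, next 0.467), Ckap2l (2.12, next 1.09) and Mki67 (15.6, next 5.24). It also stood high for the sum of Mki67 and Top2a (22.7 CPM, next 7.79) and for the sum of all members but Cenpa (117 CPM, next 68.5).

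S727A 4 stood low for Ccnb2 (0.932 CPM, next 3.58), Plk1 (1.01, next 2.23) and Top2a (5.75, next 11.8). S727A 1 stood high for the sum of kinetochore and checkpoint genes (82.7 CPM, next 63.3). WT 1 stood high for the summed T cell markers (10.6 CPM, next 7.55) and granulocyte precursor markers (3.55 CPM, next 0.749).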

How the results depend on the processing

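Every tested mitosis gene kept the sign of its log2 fold change in all 18 alternatives in which it was fitted. Members called stayed at 0 except in DESeq2 (18), among libraries with Y-linked reads only (7) and on leaving out single libraries, where the count ran from 0 to 19 (17 without S727A 4, 19 without WT 3). Genes called, 19 in the comparison as reported, were 534 in DESeq2, 242 among libraries with Y-linked reads only, 6 in limma voom, 10 on log2 FPKM with either pseudocount, 2 with the replicate block and 0 to 617 with single libraries left out. The cause was not tested. The median log2 fold change of the tested members was 0.56 on log2 of FPKM plus 1. The mean over all libraries was below that pseudocount, at under 1 FPKM, for 19 of the 40 genes. With single libraries left out, the median log2 fold change was 1.15 to 1.90. The log2 ratio of summed CPM was 1.03, and 0.86 to 1.27 with single libraries left out; it was not computed for FPKM.

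Deviations of same-numbered libraries from their group means correlated at -0.10 to 0.07. S727A 1, 2 and 3 correlated best with WT 3, and S727A 4 with WT 1, so only S727A 3 matched its own number. The libraries numbered 4 did share a lack of Y-linked reads (9 counts in S727A 4 and 6 in WT 4). With the replicate block the median was 1.39 and 0 members were called. Depth limits the scarcest genes: Bub1, Melk, Cdkn3 and Ccnb2 had 1 count or none in at least 1 WT library.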

Other observations

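Of the 40 genes, 5 lie on chromosome 11, which carries Stat3. Top2a is 1.86 Mb from Stat3 and Birc5 16.9 Mb, and Spag5, Aurkb and Hmmr lie 22.6, 31.8 and 60.2 Mb away. Some members overlap a neighbouring gene in the RefSeq annotation, and no source used here says whether counting used the strand. Ccna2 shares 863 bases with Exosc9 (11.1 FPKM over all libraries), Aurka 242 with Cstf1 (14.8 FPKM), Cdc20 53 with Elovl1 (18.1 FPKM) and Ccne2 5622 with Ints8 (5.35 FPKM). Kif20a shares 4930 bases with Cdc23 (8.97 FPKM) and 240 with Brd8 (9.56 FPKM). Prc1, itself at 1.51 FPKM over all libraries, shares 21669 bases with Rccd1 (1.51 FPKM), nearly the whole span of Prc1. For these members, how many reads come from the neighbour was not tested.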
